A study of Mus musculus with 24 samples.

Results

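The interleukin-1 (IL-1) genes described here are 10 genes chosen by symbol and read as rows of a table of transcript levels that lists 36333 genes. They comprise the ligand genes Il1a, Il1b and Il33, the antagonist gene Il1rn, the receptor genes Il1r1, Il1r2, Il1rap and Il1rl1, and the genes of the adaptor MyD88 (Myd88) and the kinase IRAK4 (Irak4). All 10 were in the table, and 9 reached the mean of 0.5 TPM (transcripts per 1000000, a level scaled by gene length and library) that 17267 genes reached and that the statistical model required. Il1rl1 fell below it with a mean of 0.361 TPM over the 24 mice, so its values come from a model of all genes without that requirement.

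RNA was sequenced from lesioned and surrounding brain tissue of male mice (strain C57BL6N and an age of 12-16 weeks per the labels) at 5 days post injury (dpi), 1 library per mouse. Controlled cortical impact (CCI), a piston strike onto the exposed cortex, was used to produce traumatic brain injury (TBI) in 20 mice, and 4 mice had sham surgery with anaesthesia and a skin incision but no opening of the skull. Mice with TBI received vehicle (n = 5), PLX3397 in food at 290 mg/kg from 90 min after CCI (n = 5), Anakinra at 100 mg/kg under the skin at 5 min, 24 h, 48 h and 72 h (n = 5), or PLX3397+Anakinra on both schedules (n = 5). The sham and vehicle mice received neither drug. The craniotomy is therefore part of every TBI group and absent from sham. The study's methods instead name the strain C57BL/6JRj and a narrower age range. The labels call the tissue cortex, whereas the study describes a block that also holds striatum, dorsal hippocampus and thalamus.

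IL-1α and IL-1β bind the receptor IL1R1, which then recruits the accessory chain IL1RAP, and MyD88 and IRAK4 carry the signal to NF-κB. The antagonist IL-1Ra, coded by Il1rn, occupies IL1R1 without recruiting the accessory chain, and IL1R2 is a decoy that binds ligand without signalling. IL-33, an alarmin stored in nuclei of astrocytes and oligodendrocytes, uses IL1RL1 (also called ST2) with the same accessory chain, adaptor and kinase. Anakinra is a recombinant form of human IL-1Ra given as protein, so the injected drug is not counted as Il1rn transcript. PLX3397 inhibits the kinase CSF1R, on which microglia depend for survival.

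The genes lie in separate clusters of the mouse genome (RefSeq, GRCm38.p6). Il1a (chromosome 2, 129299609 to 129310186, minus strand) and Il1b (chromosome 2, 129364569 to 129371164, minus strand) are separated by 54382 bases, and Il1rn lies far from them on the plus strand of the same chromosome (24336860 to 24351491). Il1r2, Il1r1 and Il1rl1 follow each other within 380727 bases of chromosome 1. Il1b overlaps the antisense gene Il1bos. Whether the counting used the strand is not given in the sources used here, so reads of this pair may not have been told apart.

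The 250 bases before the start sites of Il1a, Il1b and Il1rn (the upstream of 3 annotated Il1rn starts) are shown, as these 3 genes code for the ligands and the antagonist of IL1R1. RefSeq held promoter windows for all 10 members. Capitals mark matches to the TATA box (TATAAA) or the AP-1 motif (TGANTCA), searched on both strands.
Il1a, chr2:129309973-129310222, minus strand: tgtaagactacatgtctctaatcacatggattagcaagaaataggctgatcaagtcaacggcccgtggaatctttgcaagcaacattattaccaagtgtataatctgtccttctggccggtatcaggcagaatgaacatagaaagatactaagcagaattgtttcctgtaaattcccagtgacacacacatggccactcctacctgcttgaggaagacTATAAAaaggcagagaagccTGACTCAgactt
Il1b, chr2:129371140-129371389, minus strand: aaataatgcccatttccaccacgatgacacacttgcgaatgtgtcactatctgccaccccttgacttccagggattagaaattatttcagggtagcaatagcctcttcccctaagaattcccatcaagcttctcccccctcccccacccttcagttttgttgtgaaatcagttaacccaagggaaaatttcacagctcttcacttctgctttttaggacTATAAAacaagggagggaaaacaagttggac
Il1rn, chr2:24336610-24336859, plus strand: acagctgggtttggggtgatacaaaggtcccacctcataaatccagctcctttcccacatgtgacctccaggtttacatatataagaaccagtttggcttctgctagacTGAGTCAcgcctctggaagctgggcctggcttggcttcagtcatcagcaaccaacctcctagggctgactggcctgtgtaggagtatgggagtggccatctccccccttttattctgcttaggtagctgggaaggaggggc
Il1a and Il1b each held a TATA box near the start, at −32 and −31 bases, and Il1a also held an AP-1 match at −12. Il1rn held an AP-1 match at −141 and no TATA box. Among 32851 promoter windows of this length, 12.4% held the TATA motif and 6.75% the AP-1 motif. The NF-κB consensus (7.25% of windows) and GAGGAAGT, a PU.1 core (2.44%), had no match in these 3 windows, and Il1r1 was the member with an NF-κB match, at −232 of its downstream start.

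Each library summed to 1000000 TPM and listed 22160 to 23249 genes above 0. TPM keeps no read depth, so no counting error is attached to single values. The summed TPM of 8 microglial marker genes had medians of 330 in sham, 1464 in vehicle, 573 with PLX3397, 1340 with Anakinra and 541 with PLX3397+Anakinra. Against vehicle, all 8 were lower with PLX3397 (6.66% of all genes lower) and with PLX3397+Anakinra (9.6%), and 0 were called in the Anakinra group (0.116%). Mean Csf1r, which codes for the target of PLX3397, was 226 TPM with vehicle, 89.1 with PLX3397, 221 with Anakinra and 77.5 with PLX3397+Anakinra. In bulk tissue, fewer cells of a type and less RNA per cell cannot be told apart. Fibroblast and meningeal markers (6 genes) summed to 106 and 129 TPM in vehicle mice J17B and J20B but to 455 to 555 in the other 3 vehicle mice. The identifiers of the vehicle mice alone carry the letter B, and if that marks a batch it cannot be told apart from vehicle treatment.

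TBI raised most members, and PLX3397 lowered a subset, whereas no member was called between Anakinra and vehicle. Differences were fitted with limma on log2(TPM + 1), and called at an adjusted p below 0.05 over all 17267 genes. The group differences given below are on this scale. The added 1 TPM shrinks them for genes at low levels, so they are not log2 ratios of TPM. Il1a, for example, was 4.12-fold higher with vehicle than in sham, at a difference of 0.89. Sizes of low-level members therefore cannot be set directly against those of abundant ones such as Il33. Vehicle exceeded sham for 6 of the 9 tested members (Il1a, Il1rn, Il1r1, Il33, Myd88 and Irak4), where 26.6% of all genes were called higher. PLX3397 exceeded sham for 8 (22.7% of genes higher), Anakinra for 7 (25.1%) and PLX3397+Anakinra for 7 (20.7%). No member was lower than sham. The median member difference from sham lay between 0.80 and 0.91 on the log2 scale in the 4 TBI groups, beside medians of all genes between −0.04 and −0.01.

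Against vehicle, PLX3397 lowered 2 of 9 members (Il1a and Irak4), with 6.66% of genes called lower. PLX3397+Anakinra lowered 4 (Il1a, Il1rn, Myd88 and Irak4), with 9.6% of genes lower, but 2 (Il1a and Irak4) when vehicle mouse J18B was left out. Anakinra changed 0 of 9 in limma, 0 also at an unadjusted p below 0.05 and 0 by the exact permutation test, and 0.116% of all genes were called. The same 4 genes that fell with PLX3397+Anakinra against vehicle were lower against Anakinra (8.1% of genes lower), and Il1a, Myd88 and Irak4 were lower with PLX3397 than with Anakinra (5.41%). Adding Anakinra to PLX3397 called 0 of 9 in limma (0.151% of genes), 1 (Il1rn) at an unadjusted p below 0.05 and 1 (Il1rn) by the exact permutation test. Il1rl1 is not among these 9. In the limma model without a minimum level it was not called between Anakinra and vehicle (unadjusted p = 0.0039). It was also not called on adding Anakinra to PLX3397 (unadjusted p = 0.014). Over all 5 groups together, 7 members differed (all tested members but Il1r2 and Il1rap), as did 51.9% of genes. The interaction of the drugs called 0 members (0% of genes), with Il1b alone under an unadjusted p of 0.05. These comparisons share mice and are not independent of each other.

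Few members met the study's criteria for a differentially expressed gene, a p below 0.05 with a ratio above 2 and a difference above 4 TPM, which low-level genes cannot reach. Vehicle versus sham gave 3 (Il1r1, Myd88 and Irak4; 5.26% of genes in either direction), Anakinra versus sham the same 3 (5.29%), PLX3397 versus sham 1 (Il1r1; 3.66%) and PLX3397+Anakinra versus sham 1 (Il1r1; 2.9%). None met them for PLX3397 versus vehicle (1.02%), PLX3397+Anakinra versus vehicle (1.65%), PLX3397+Anakinra versus Anakinra (1.57%) or PLX3397 versus Anakinra (0.747%).

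**Figure D1:**
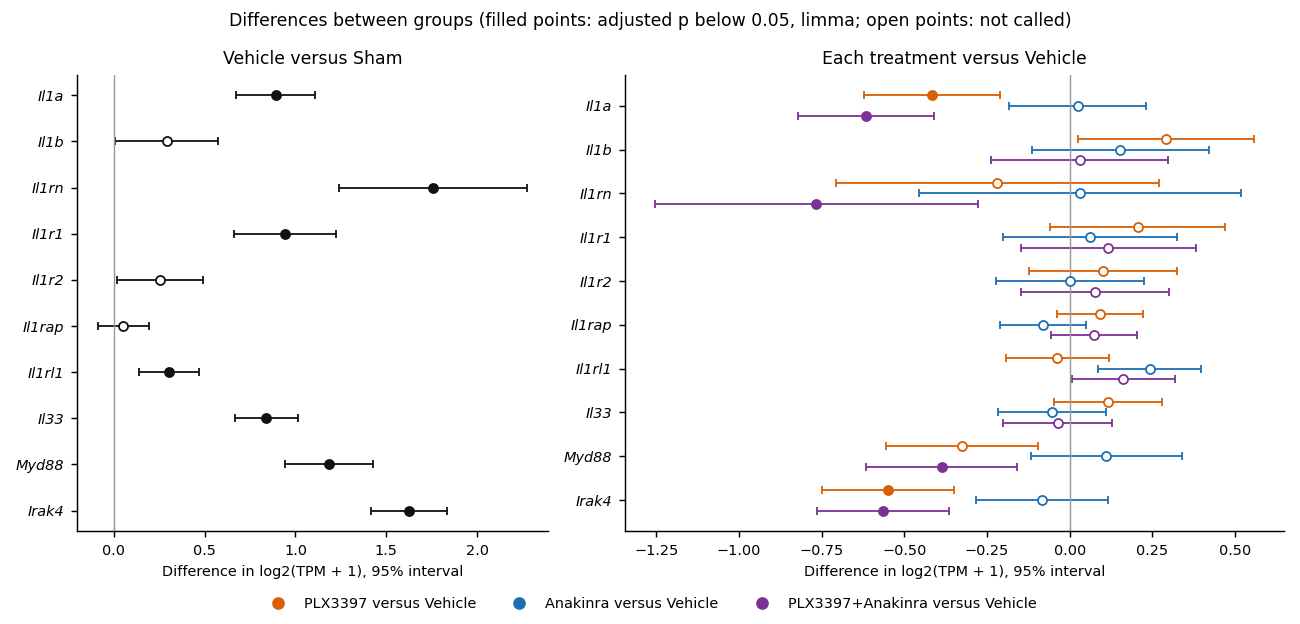
Difference in log2(TPM + 1) with its 95% interval for each of the 10 genes, vehicle versus sham on the left and each treatment versus vehicle on the right (n = 5 per TBI group, 4 sham). Filled points passed an adjusted p below 0.05 (Il1rl1 in the model without a minimum level), and all filled points on the right lie below 0, from Irak4 and Il1a with PLX3397 to Il1rn, at −0.77, with PLX3397+Anakinra.

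Il1a, which codes for IL-1α, a ligand that injured cells release, was 4.12-fold higher with vehicle than in sham, and this rise was cut back wherever PLX3397 was given. The sham mice had 0.295, 0.388, 0.401 and 0.447 TPM. With vehicle the values were 1.13, 1.37, 1.69, 1.73 and 1.96 TPM. The Anakinra mice had 1.47, 1.504, 1.55, 1.69 and 1.81 TPM. Sham lay wholly below both groups, which overlapped each other. The PLX3397 mice had 0.570, 0.843, 0.946, 1.05 and 1.25 TPM. Mice given PLX3397+Anakinra had 0.543, 0.607, 0.614, 0.706 and 0.901 TPM. The PLX3397 values overlapped the lowest vehicle value, whereas those with PLX3397+Anakinra lay below every vehicle mouse and above every sham mouse.

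In log2(TPM + 1), Il1a rose by 0.89 ± 0.11 (SE) with vehicle against sham (adjusted p = 1.2e-07). It fell by 0.42 ± 0.10 with PLX3397 against vehicle (adjusted p = 0.0072) and by 0.62 ± 0.10 with PLX3397+Anakinra (adjusted p = 6.7e-05). These calls held with each mouse left out, but the fall with PLX3397 alone was not called when only the PLX3397 and vehicle groups were modelled (adjusted p = 0.070). The difference between Anakinra and vehicle was 0.02, with a 95% interval from −0.18 to 0.23 (adjusted p = 0.95). Of the vehicle minus sham difference in mean TPM, 46.0% remained with PLX3397, 102% with Anakinra and 24.4% with PLX3397+Anakinra. The step from PLX3397 to PLX3397+Anakinra was not called (−0.20, interval −0.41 to 0.01, adjusted p = 0.75). The excess of PLX3397+Anakinra over sham was called at an adjusted p of 0.043, but was lost without any one of the 4 sham mice or without J03 or J10 of the PLX3397+Anakinra group, and with only those 2 groups modelled (adjusted p = 0.063).

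Il1b, which codes for IL-1β, the ligand that caspase-1 cleaves into its active form, was low in all groups and did not follow Il1a. The sham mice had 0.142, 0.208, 0.215 and 0.461 TPM. With vehicle the values were 0.334, 0.439, 0.511, 0.676 and 0.730 TPM. Sham mouse J08 lay within the vehicle values. The Anakinra mice had 0.511, 0.541, 0.599, 0.8289 and 1.10 TPM. The PLX3397 mice had 0.541, 0.570, 0.752, 1.27 and 1.399 TPM. With PLX3397+Anakinra the values were 0.420, 0.433, 0.533, 0.675 and 0.789 TPM. The highest values were those of PLX3397 mice J19 and J20, and all 4 TBI groups overlapped.

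The Il1b difference between vehicle and sham was 0.29 ± 0.14 and was not called (adjusted p = 0.077), though it was without sham mouse J08 (adjusted p = 0.042). The exact permutation test, unadjusted, called this difference (p = 0.048) and that between PLX3397+Anakinra and sham (p = 0.032). In limma, Il1b exceeded sham with PLX3397 (0.58 ± 0.14, adjusted p = 0.0012) and with Anakinra (0.44 ± 0.14, adjusted p = 0.0082). Between PLX3397 and vehicle it was 0.29 higher, with an interval from 0.02 to 0.56 and an adjusted p of 0.17, so no change was called. The intervals reached from −0.11 to 0.42 for Anakinra and from −0.24 to 0.30 for PLX3397+Anakinra. Its order of means was PLX3397, Anakinra, PLX3397+Anakinra and vehicle, with 0 of the pairs among them called, and then sham.

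The balance of the 2 ligand transcripts was lower in the groups given PLX3397, in which Il1a fell and no change of Il1b was called. The ratio of Il1a to Il1b, as a geometric mean over mice after adding 0.1 TPM to each, was 1.42 in sham, 2.66 with vehicle, 1.07 with PLX3397, 2.16 with Anakinra and 1.17 with PLX3397+Anakinra. On the log2 scale the vehicle mice ranged from 0.67 to 2.05 and the PLX3397 mice from −0.25 to 0.64, so these groups did not overlap. The PLX3397+Anakinra mice ranged from −0.14 to 0.94 and overlapped vehicle. With 1 TPM added, the mean log2 ratio was 0.74 with vehicle, 0.03 with PLX3397, 0.61 with Anakinra and 0.09 with PLX3397+Anakinra. These ratios are given as a description, without a test.

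**Figure D2:**
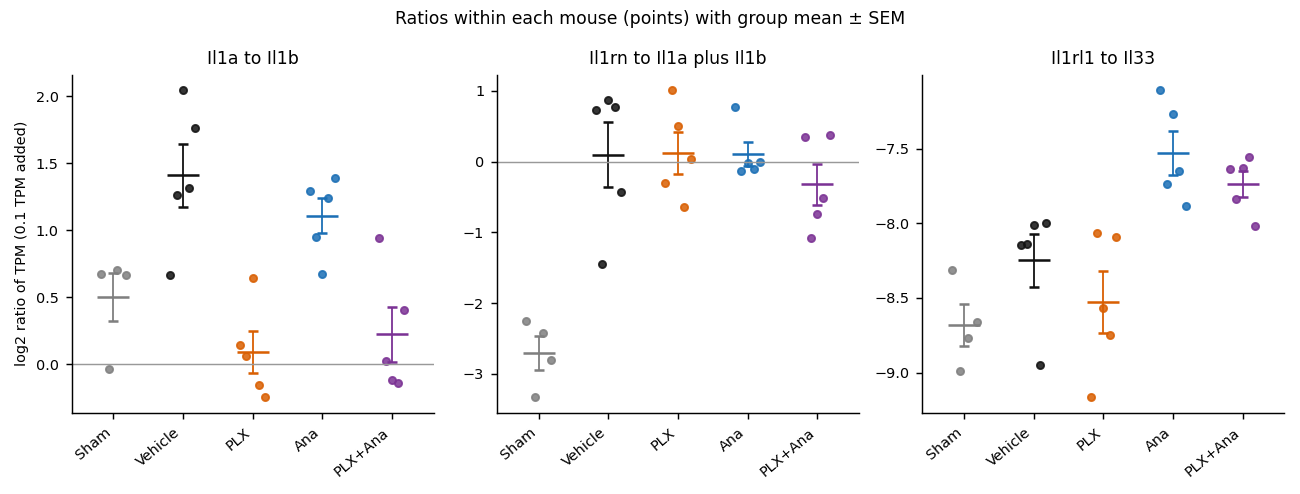
Log2 ratios of TPM within each mouse after adding 0.1 TPM, with group means ± SEM, in sham (n = 4) and the 4 TBI groups (n = 5 each). Il1a to Il1b is lower in the groups given PLX3397, Il1rn to the summed IL-1 ligands is near 0 in every TBI group and below −2 in sham (where Il1rn is listed at 0 in 3 of 4 mice and the added value sets the ratio), and Il1rl1 to Il33 is higher in the groups given Anakinra.

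Il1rn, which codes for the endogenous antagonist IL-1Ra, was at or near 0 in sham and rose in all TBI groups. It was listed at 0 in 3 sham mice and at 0.0504 TPM in the fourth. The vehicle mice had 0.624, 1.58, 3.08, 3.81 and 4.67 TPM. The Anakinra mice had 1.99, 2.01, 2.29, 2.88 and 3.51 TPM. Vehicle spread the widest of all groups, and its lowest value was that of J17B, the TBI mouse with the lowest fibroblast marker sum. The PLX3397 mice had 1.27, 1.67, 2.19, 2.35 and 2.39 TPM. Under both drugs the values were 0.455, 0.732, 1.02, 1.37 and 1.71 TPM. The PLX3397+Anakinra mice lay below every Anakinra mouse and overlapped the PLX3397 and vehicle mice.

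In log2(TPM + 1), Il1rn was 1.76 ± 0.25 higher with vehicle than in sham (adjusted p = 1.9e-06). With PLX3397+Anakinra it fell by 0.77 ± 0.24 against vehicle (adjusted p = 0.026) and by 0.80 ± 0.24 against Anakinra (adjusted p = 0.026). Both calls rested on single mice and settings. The first was lost without vehicle mouse J01B, J18B or J19B or PLX3397+Anakinra mouse J04 or J09 (adjusted p up to 0.099), without a minimum level (0.050), with only those 2 groups modelled (0.11) and by the exact permutation test (p = 0.079). The second was lost without Anakinra mouse J05 or J14 or PLX3397+Anakinra mouse J04 or J09 (adjusted p up to 0.085), without a minimum level (0.053) and with the number in the mouse identifier as a replicate block (0.054). PLX3397 alone differed from vehicle by −0.22 (interval −0.71 to 0.27) and Anakinra alone by 0.03 (−0.46 to 0.52). The ratio of Il1rn to the sum of Il1a and Il1b was 1.07 with vehicle, 1.09 with PLX3397, 1.07 with Anakinra and 0.80 with PLX3397+Anakinra, with overlapping mice throughout the TBI groups. In sham the mean log2 ratio was −2.70 with 0.1 TPM added and −0.69 with 1 TPM added, so its size there was set by the added value, Il1rn being listed at 0 in 3 of the 4 mice.

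**Figure D3:**
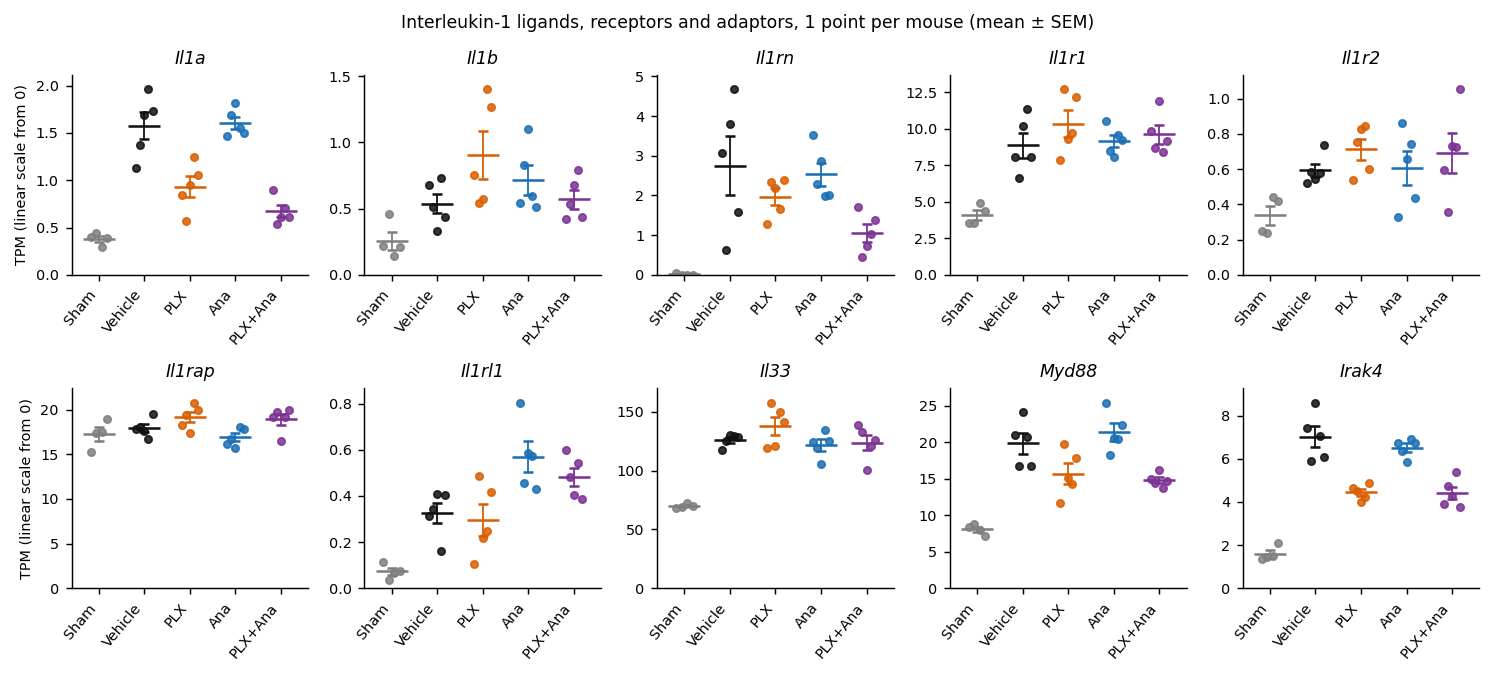
TPM of the 10 genes in each mouse on linear axes from 0, with the mean and SEM of sham (n = 4), vehicle, PLX3397 (PLX), Anakinra (Ana) and PLX3397+Anakinra (PLX+Ana; n = 5 each). Il1a, Myd88 and Irak4 have lower means than with vehicle in both groups given PLX3397 (Myd88 not called with PLX3397 alone). Il1rl1 has its highest mean with Anakinra, and Il1rap stays between 15.2 and 20.8 TPM in all mice.

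Il1r1, which codes for the receptor that Anakinra occupies, rose with injury and was not called between any of the TBI groups. It ranged from 3.53 to 4.95 TPM in sham, 6.61 to 11.4 with vehicle, 7.88 to 12.7 with PLX3397, 8.08 to 10.5 with Anakinra and 8.42 to 11.9 with PLX3397+Anakinra. Every TBI mouse lay above every sham mouse. Vehicle was 2.17-fold higher than sham, a log2 difference of 0.94 ± 0.14 (adjusted p = 2.2e-06). Against vehicle the differences were 0.21 with PLX3397, 0.06 with Anakinra and 0.12 with PLX3397+Anakinra, the intervals reaching at most 0.47 and at least −0.20.

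Il1r2, the decoy receptor gene, was low, with means of 0.339 TPM in sham, 0.593 with vehicle, 0.712 with PLX3397, 0.606 with Anakinra and 0.692 with PLX3397+Anakinra. It exceeded sham with PLX3397 (0.35 ± 0.12, adjusted p = 0.014) and PLX3397+Anakinra (0.33 ± 0.12, adjusted p = 0.025), the latter call being lost without J17 of that group or without sham mouse J07 or J08. The vehicle mice, at 0.523 to 0.736 TPM, lay above all sham mice, at 0.241 to 0.444 TPM, but the difference of 0.25 was not called in limma (adjusted p = 0.066). The exact permutation test, unadjusted, called this difference (p = 0.0079). Among the 9 tested members, 7 did not overlap between vehicle and sham, as did 42.7% of all genes. Il1rap, which codes for the accessory chain, had means of 17.3, 17.9, 19.2, 16.9 and 18.9 TPM in sham, vehicle, PLX3397, Anakinra and PLX3397+Anakinra. It was not called in any of the 10 pairs in limma. The exact permutation test, unadjusted, called it for PLX3397 and for PLX3397+Anakinra against Anakinra (p = 0.032 and 0.048). Its largest difference was 0.17 between PLX3397 and Anakinra (interval 0.04 to 0.30, adjusted p = 0.11).

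Il33 was by far the most abundant member per length, and rose with injury in all TBI groups. It ranged from 68.0 to 72.8 TPM in sham, 117 to 130 with vehicle, 119 to 158 with PLX3397, 105 to 135 with Anakinra and 100 to 138 with PLX3397+Anakinra. Every TBI mouse lay above every sham mouse, and the TBI groups overlapped. Vehicle was 1.80-fold higher than sham, a log2 difference of 0.84 ± 0.08 (adjusted p = 7.0e-09). The treatments differed from vehicle by 0.12 with PLX3397, −0.05 with Anakinra and −0.04 with PLX3397+Anakinra, and none was called. The 6 astrocyte markers summed to medians of 1366 TPM in sham, 3910 with vehicle, 3656 with PLX3397, 3532 with Anakinra and 3421 with PLX3397+Anakinra.

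Il1rl1, the gene of the IL-33 receptor, had its highest means in the 2 groups given Anakinra. The sham mice had 0.0364, 0.0672, 0.0738 and 0.114 TPM. The vehicle mice had 0.162, 0.314, 0.345, 0.403 and 0.406 TPM. The PLX3397 mice had 0.107, 0.219, 0.249, 0.418 and 0.488 TPM. One PLX3397 mouse fell within the sham range, and the vehicle and PLX3397 mice overlapped. The Anakinra mice had 0.429, 0.458, 0.573, 0.586 and 0.804 TPM. Values with PLX3397+Anakinra were 0.385, 0.406, 0.482, 0.543 and 0.597 TPM. The Anakinra mice lay above every vehicle mouse, and the PLX3397+Anakinra mice overlapped vehicle. In the model without a minimum level, the difference between Anakinra and vehicle was 0.24 ± 0.08 but was not called (adjusted p = 0.25), and that between PLX3397 and Anakinra was −0.28 ± 0.08 and was called (adjusted p = 0.037). These values lie below 1 TPM, where the added 1 TPM shrinks differences.

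Irak4, which codes for the kinase that MyD88 recruits, showed the strongest injury response among the tested members by its test statistic, and PLX3397 lowered it. The sham mice had 1.37, 1.43, 1.47 and 2.12 TPM. With vehicle the values were 5.91, 6.07, 7.07, 7.42 and 8.60 TPM. The Anakinra mice had 5.84, 6.35, 6.74, 6.75 and 6.92 TPM. Every mouse of these TBI groups exceeded every sham mouse. The PLX3397 mice had 4.01, 4.21, 4.51, 4.65 and 4.86 TPM. Mice given PLX3397+Anakinra had 3.78, 3.91, 4.26, 4.73 and 5.38 TPM. All 10 mice given PLX3397 lay between the sham mice and the mice with vehicle or Anakinra, without overlap.

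The Irak4 difference was 1.62 ± 0.10 between vehicle and sham (adjusted p = 1.5e-12). It fell by 0.55 ± 0.10 with PLX3397 (adjusted p = 0.00032) and by 0.56 ± 0.10 with PLX3397+Anakinra (adjusted p = 0.00013) against vehicle. Both calls held with each mouse left out. Adding Anakinra to PLX3397 gave −0.02, with an interval from −0.21 to 0.18. Of the vehicle minus sham rise in mean TPM, 52.6% remained with PLX3397, 90.8% with Anakinra and 51.9% with PLX3397+Anakinra. Irak4 was the member that did not overlap between PLX3397 and vehicle (6.89% of all genes), and Il1a, Myd88 and Irak4 did not overlap between PLX3397+Anakinra and vehicle (10.7% of genes).

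Myd88, the gene of the adaptor shared by IL-1, IL-33 and Toll-like receptors, rose 2.45-fold with vehicle against sham. The sham mice had 7.16, 8.02, 8.43 and 8.76 TPM. The vehicle mice had 16.7, 16.7, 20.7, 20.96 and 24.1 TPM. The Anakinra mice had 18.3, 20.4, 20.6, 22.3 and 25.4 TPM. Sham lay wholly below both groups, which overlapped. The PLX3397 mice had 11.6, 14.3, 15.1, 17.9 and 19.7 TPM. With PLX3397+Anakinra the values were 13.8, 14.5, 14.7, 14.98 and 16.2 TPM. The PLX3397 mice overlapped vehicle, and those given both drugs lay just below it. The difference from vehicle was −0.39 ± 0.11 with PLX3397+Anakinra (adjusted p = 0.016), lost without vehicle mouse J18B (0.065), and −0.33 ± 0.11 with PLX3397, which was not called (adjusted p = 0.063) but was without J17B or J20B of vehicle or J02 or J20 of PLX3397. Between PLX3397 and Anakinra it was −0.44 ± 0.11 (adjusted p = 0.014), lost without J05 of Anakinra or J01 of PLX3397 (adjusted p up to 0.061), or with only those 2 groups modelled (0.051).

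Levels of the members were set beside the microglial marker sum in each mouse. The mice given PLX3397 had microglial sums of 466 to 775 TPM, and those with vehicle or Anakinra of 1197 to 1525 TPM, while sham mice had 324 to 341 TPM. Against vehicle, Il1a and Irak4 were called lower in both groups given PLX3397, Myd88 only with PLX3397+Anakinra, and Il1b and Il33 in neither. The part of these markers in the differences was not tested. Monocyte and neutrophil markers (9 genes, 6 tested) had median sums of 45.4 TPM with vehicle, 44.4 with PLX3397, 38.4 with Anakinra and 25.2 with PLX3397+Anakinra. Against vehicle, 3 of 6 were called lower with PLX3397 (6.66% of all genes lower) and 0 higher. With Anakinra 1 was called lower (0.116% called either way), and with PLX3397+Anakinra 3 were (9.6% lower). Mean TPM of the list moved both ways between vehicle and PLX3397. Ccr2, Mmp8 and Csf3r had lower means with PLX3397. S100a8, S100a9, Ly6c2, Retnlg, Cxcr2 and Plac8 had higher means. The range of the summed monocyte and neutrophil markers with PLX3397+Anakinra was 18.3 to 34.7 TPM, beside the lowest mean Il1rn of the TBI groups. Mice of other TBI groups also fell in this range. They were vehicle mouse J17B (25.2 TPM, Il1rn 0.624 TPM), PLX3397 mice J01 (23.0, Il1rn 1.27) and J12 (31.2, Il1rn 2.19), and Anakinra mouse J05 (34.5, Il1rn 3.51). The part of these markers in the Il1rn values was not tested.

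**Figure D4:**
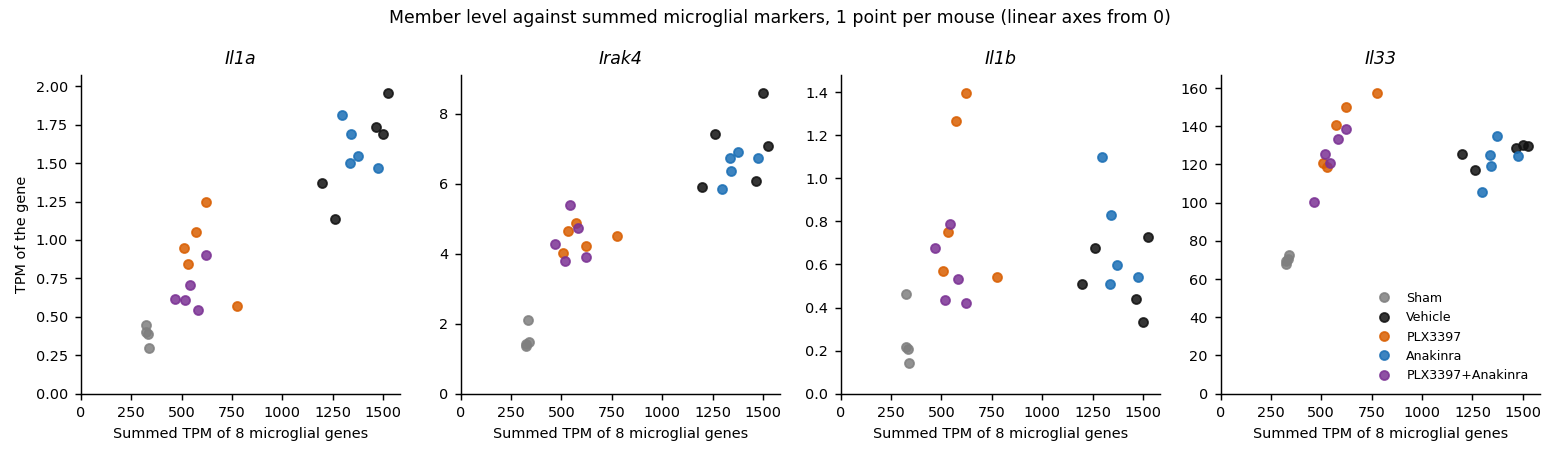
TPM of Il1a, Irak4, Il1b and Il33 (vertical axes) against the summed TPM of 8 microglial marker genes (horizontal axes) in each of 24 mice, on linear axes from 0. The mice given PLX3397 fall at 466 to 775 TPM on the horizontal axis and are low for Il1a and Irak4 compared with vehicle, whereas 2 PLX3397 mice have the highest Il1b values (1.27 and 1.399 TPM).

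Genes whose products process IL-1β were lower in the groups given PLX3397. Of 8 genes, 7 were tested, and all 7 were higher with vehicle than in sham (26.6% of all genes higher). Against vehicle, 6 were lower with PLX3397 (6.66% of all genes) and 7 with PLX3397+Anakinra (9.6%), and 0 were called with Anakinra (0.116%). The median difference of the 7 was −0.66 with PLX3397 and −0.84 with PLX3397+Anakinra, beside 0.01 for all genes in each comparison. Pycard, which codes for the inflammasome adaptor ASC, had means of 3.16 TPM in sham, 23.6 with vehicle, 10.9 with PLX3397, 24.1 with Anakinra and 8.05 with PLX3397+Anakinra (PLX3397 versus vehicle, −1.05, adjusted p = 1.8e-06). Nlrp3, an inflammasome sensor, fell by 0.95 with PLX3397 (adjusted p = 1.3e-06), and Casp1, the protease that cleaves pro-IL-1β, by 0.74 (adjusted p = 0.00035).

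Among 17 genes of signalling below the receptors, 9 were higher (26.6% of all genes higher) and 3 lower with vehicle than in sham. Nfkb1, an NF-κB subunit, rose by 0.60 (adjusted p = 1.2e-07), Irak3, an inhibitory member of the IRAK family, rose by 0.57 (adjusted p = 0.00026), and Peli3, a ubiquitin ligase of the Pellino family, fell by 0.57 (adjusted p = 1.5e-07). With PLX3397, 3 were lower than with vehicle: Nfkb1 (−0.33, adjusted p = 0.0019), the kinase gene Irak2 (−0.28, adjusted p = 0.0045) and the adaptor gene Tab2 (−0.12, adjusted p = 0.028). With PLX3397+Anakinra the same 3 genes were lower and Tollip, an inhibitor of receptor signalling, was higher by 0.10 (adjusted p = 0.041). None of the 17 was called with Anakinra. Of all genes, 6.66% were lower with PLX3397, 9.6% lower with PLX3397+Anakinra and 0.116% called with Anakinra, each against vehicle.

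Of 23 genes that IL-1 is known to induce, 17 were tested, and 15 were higher (26.6% of all genes higher) and 1 lower with vehicle than in sham. Lcn2, an acute-phase protein of astrocytes and neutrophils, had means of 1.31 TPM in sham, 62.6 with vehicle, 54.9 with PLX3397, 25.3 with Anakinra and 23.4 with PLX3397+Anakinra. It fell by 1.52 with PLX3397+Anakinra against vehicle (adjusted p = 0.010), whereas its difference of −1.35 with Anakinra was not called (adjusted p = 0.15). The study, by its own criteria, lists Lcn2 as differing from vehicle both with Anakinra and with PLX3397+Anakinra. The chemokine gene Ccl2 and the adhesion gene Icam1 also fell with PLX3397+Anakinra, by 0.83 (adjusted p = 0.0014) and 0.62 (adjusted p = 0.0015). With PLX3397 alone, Icam1 (−0.45, adjusted p = 0.029) and Tnfaip3, the gene of the NF-κB inhibitor A20 (−0.32, adjusted p = 0.0041), were lower than with vehicle. Mmp3 and Ptgs2 were higher than vehicle with PLX3397 (1.14 and 0.39, adjusted p = 0.021 and 0.032) and with PLX3397+Anakinra (0.96 and 0.43, adjusted p = 0.038 and 0.011). Ptgs2, which codes for the prostaglandin enzyme COX-2, was the gene lower with vehicle than in sham (−0.53, adjusted p = 0.00083). With Anakinra alone 0 of the 17 were called (0.116% of all genes), and their median difference from vehicle was 0.09, beside −0.02 for all genes. This median covers moves in both directions. Mean Timp1, for example, was 40.6 TPM with vehicle and 65.6 with Anakinra, whereas mean Lcn2 was lower with Anakinra.

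Of 13 other IL-1 family ligands and receptors, 6 were tested. Of all genes, 26.6% were higher with vehicle than in sham. With vehicle against sham, Il1rl2, the IL-36 receptor gene (0.89, adjusted p = 1.8e-05), Il18bp, the gene of an IL-18 inhibitor (0.82, adjusted p = 2.4e-08), and Il18 (0.33, adjusted p = 0.00024) were higher, and Il1rapl1 (−0.32, adjusted p = 0.039) and Il1rapl2 (−0.28, adjusted p = 0.049) lower. Il18bp was lower with PLX3397+Anakinra than with vehicle (−0.41, adjusted p = 0.00084). None was called with PLX3397 or Anakinra alone against vehicle.

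**Figure D5:**
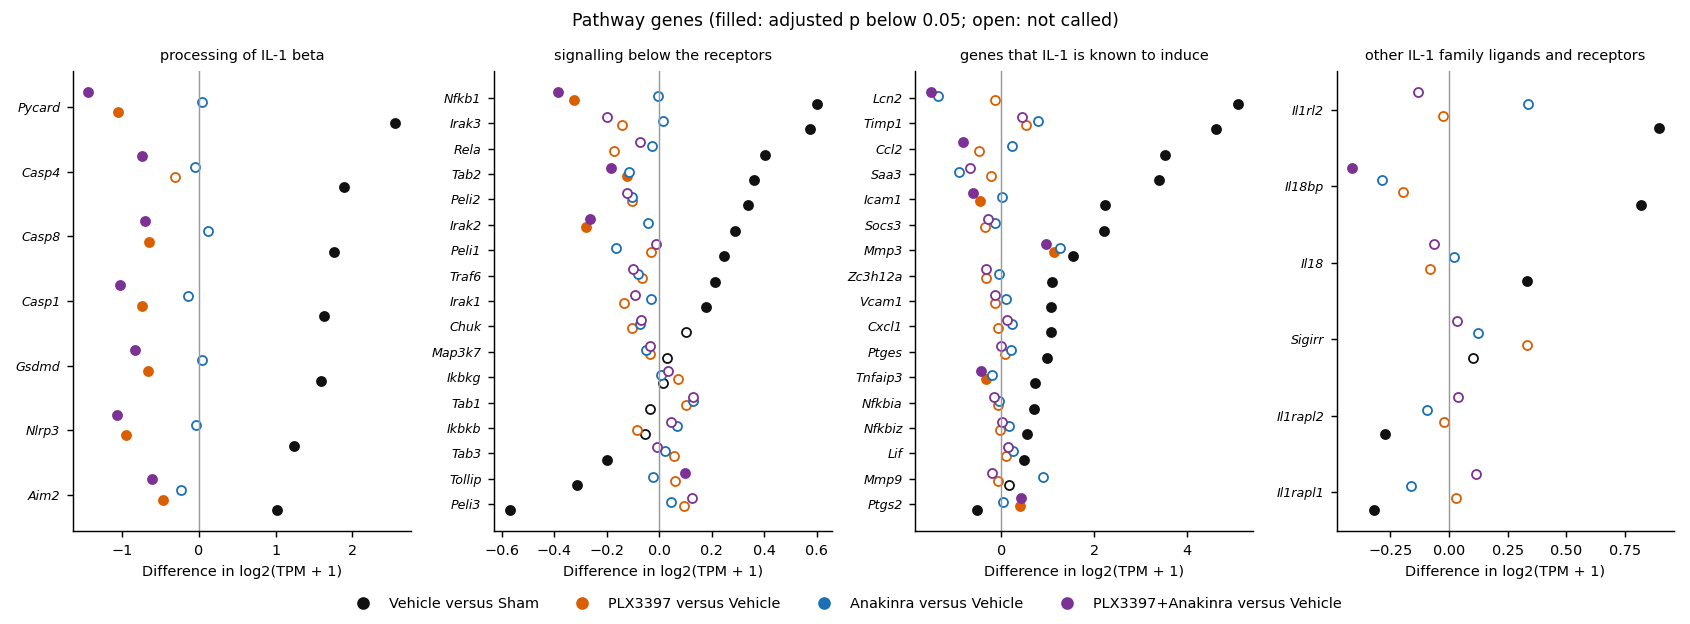
Differences in log2(TPM + 1) for the tested genes of 4 lists around IL-1 signalling, with vehicle versus sham and each treatment versus vehicle as separate colours. Filled points passed an adjusted p below 0.05, and the points of Anakinra versus vehicle are open for all genes shown, whereas 7 of 7 processing genes are filled and below 0 with PLX3397+Anakinra.

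The genes whose levels followed each member most closely over the 24 mice differed between members. Il1a was closest to Treml2 (Pearson r = 0.94), Fcgr1 (0.94) and Samhd1 (0.93). Il1b was closest to Slfn4 (0.83), Sigirr (0.74) and Oasl1 (0.72). Il1rn was closest to the lectin genes Clec4n (0.95) and Clec4d (0.93) and to Slc44a2 (0.94). The correlations of Il1a dropped to between 0.39 and 0.43 after group means were removed, whereas those of Il1rn stayed between 0.75 and 0.87. Il33 was closest to Aqp4 (0.96), the astrocyte water channel gene, Idh1 (0.96) and Aldh1a1 (0.96), with 0.70 to 0.79 after group means were removed. Il1r1 was closest to 1810058I24Rik, Pdgfrl and S100a11 (0.95 each), and Il1rl1 to Col8a2 (0.84), Crtap (0.83) and Htra3 (0.83). These correlations share the group differences and library scaling and are given as a description.

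The ratio of Il1rl1 to Il33, the receptor and its ligand, was taken as a geometric mean over mice after adding 0.1 TPM to each. It was 0.0024 in sham, 0.0033 with vehicle, 0.0027 with PLX3397, 0.0054 with Anakinra and 0.0047 with PLX3397+Anakinra. On the log2 scale the Anakinra mice (−7.89 to −7.11) lay above every vehicle mouse (−8.95 to −8.00), and the PLX3397+Anakinra mice (−8.02 to −7.56) overlapped vehicle at the edge. With 1 TPM added, the mean log2 ratio was −6.05 in sham, −6.59 with vehicle, −6.74 with PLX3397, −6.29 with Anakinra and −6.39 with PLX3397+Anakinra. Sham thus moved from the lowest to the highest group, so its place was set by the added value. Fibroblast and meningeal markers moved with Il1rl1 in part, with median sums of 455 TPM with vehicle, 733 with PLX3397, 811 with Anakinra and 667 with PLX3397+Anakinra. Their part in the Il1rl1 values was not tested. Mast cells are a known source of ST2. Their markers had 5 of 6 genes under 0.5 TPM in sham and with PLX3397+Anakinra, and 4 of 6 with vehicle, PLX3397 and Anakinra.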

How the data were processed

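The authors trimmed and mapped paired-end reads of polyA-selected mRNA in CLC Genomics Workbench v21.0.5 (mm10; GRCm38 per the labels) and deposited 1 table of TPM per gene and mouse. Tables annotated with the authors' comparisons were not used. TPM holds no counts, so depth and counting error are unknown.

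The 10 genes and all gene lists were chosen with earlier results of these data known. Log2(TPM + 1) of all 24 libraries was fitted with limma 3.58.1 (R 4.3.3), 1 mean per group and a variance trend, over the 17267 genes averaging 0.5 TPM or more, with Benjamini-Hochberg adjustment over all of them. All 10 pairs of groups and the interaction were tested. Named pathway genes were up to 3 per list, direction and comparison with the largest called difference, and 3 per member by Pearson r. Each mouse is 1 replicate. Steps were tested on simulated data. The 4 IL-36 genes were matched by RefSeq synonyms. Alternatives included another pseudocount, other filters, median-ratio scaling, only the compared groups, no variance trend, a replicate block, exact permutation, the study's criteria (unadjusted limma p below 0.05, ratio above 2, difference above 4 TPM) and leaving out each mouse.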

Additional observations from a re-analysis of the deposited data

Results flagged for a closer look

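Single values stood apart from their group, by the gap to the nearest other mouse relative to the range of the group, in 4 of 50 groups of member values, where chance flags about 1 in 20. Il1rn was at 0.0504 TPM in sham mouse J07 and listed at 0 in the other 3 sham mice. Beside 3 values of 0, any value above 0 is flagged, so the rate of 1 in 20 does not apply to it. Irak4 was at 2.12 TPM in sham mouse J16, beside 1.37 to 1.47 TPM in the others. Il1r2 was at 0.736 TPM in vehicle mouse J20B, beside 0.523 to 0.582 TPM. Il1rap was at 16.5 TPM in PLX3397+Anakinra mouse J09, beside 19.2 to 19.95 TPM.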

How the results depend on the processing

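No called difference reversed under any alternative. By the study's thresholds on the unadjusted limma p, which need a difference above 4 TPM, the members called were 3 for vehicle versus sham, 1 for PLX3397 versus sham, 3 for Anakinra versus sham, 1 (Il1r1) for PLX3397+Anakinra versus sham, and 0 for PLX3397 or PLX3397+Anakinra versus vehicle or versus Anakinra. With only the compared groups modelled, 1 (Irak4) remained for PLX3397 versus vehicle, where the call of Il1a was lost, and the exact permutation test called 1 (Il1rn) for PLX3397+Anakinra versus PLX3397. Leaving out each mouse gave 2 to 4 members for PLX3397+Anakinra versus vehicle (2 without vehicle mouse J18B), 5 to 8 for PLX3397+Anakinra versus sham, 2 to 3 for PLX3397 versus vehicle, and 0 throughout for Anakinra versus vehicle. Median-ratio scaling shifted the median of all genes by at most 0.031.

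The number in the mouse identifier as a replicate block gave 3 members for PLX3397 versus vehicle and 3 for PLX3397+Anakinra versus Anakinra, where the call of Il1rn was lost, and changed no other count. Deviations of the 4 same-numbered pairs of vehicle and treated mice correlated at −0.13 to 0.32. The correlation within blocks that the model estimated was 0.25. With 4 pairs, these values cannot decide whether the numbers pair the samples.

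TPM without counts limits the precision of Il1a, Il1b, Il1rn, Il1r2 and Il1rl1, whose group means in sham are under 0.5 TPM. Only male mice at 5 dpi were measured, and transcripts say nothing of protein or cleavage.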

Other observations

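Marker lists of other cell types differed in how many genes moved with treatment. Shares of all genes called lower than sham, or higher with a treatment than with vehicle or Anakinra, are not given here. Those counts therefore have no background beside them and are not read as particular to a cell type. Of 7 endothelial genes, 0 were called with PLX3397, Anakinra or PLX3397+Anakinra against vehicle in limma. Of 6 neuronal genes, 6 were lower with vehicle than in sham, and 5 were higher with PLX3397+Anakinra than with vehicle, as were 4 against Anakinra. Of 6 fibroblast and meningeal genes, 3 were higher and 1 lower with PLX3397 than with vehicle (6.66% of all genes lower). The same counts held for PLX3397+Anakinra (9.6% lower), and 0 were called with Anakinra (0.116%). Of 6 oligodendrocyte genes, 5 were higher with vehicle than in sham (26.6% of all genes higher). With PLX3397, 1 was higher than with vehicle, beside 4 against Anakinra. None of 4 choroid plexus and 4 striatal genes was called between vehicle and sham. The T-cell gene Trac was listed at 0 in every mouse, but other genes of its list were not. In sham and vehicle, mean Cd3e was 0 and 0.154 TPM, Cd3g 0.0679 and 0.0780, and Il7r 0.203 and 2.02.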
